A study of Mus musculus with 24 samples.

Results

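The interferon regulatory factor (IRF) genes were followed in mouse macrophages that had been taken from tumours or grown from bone marrow. The 8 genes, Irf1, Irf2, Irf3, Irf4, Irf5, Irf7, Irf8 and Irf9, were chosen by their gene name on the array. They were read by 9 probes, of 46589 genes and unnamed probes in all, since Irf1 had a second probe.

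IRFs are transcription factors that share a helix-turn-helix DNA-binding domain and recognise the interferon-stimulated response element. IRF3 and IRF7 are activated by kinases downstream of nucleic acid and lipopolysaccharide sensors and switch on the type I interferon genes, and IRF9 is the DNA-binding part of a complex that passes the interferon signal on. IRF1 is induced by interferon-gamma and is opposed by IRF2 at shared elements, IRF5 drives inflammatory cytokine genes in macrophages, and IRF4 and IRF8 act with PU.1, IRF8 in the making of monocytes and macrophages and IRF4 in alternative activation.

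The study held 24 arrays in 6 groups of 4, from male C57BL/6 mice 10 weeks old. Tumour-associated macrophages, TAM, came from naive mice and from mice taken 14 days after sepsis, by a 70/30 Percoll gradient and 1 hour of adhesion. Unpolarized marrow macrophages (M0), from naive mice in one group and post-sepsis mice in the other, were grown for 7 days in RPMI with 20% L929 supernatant, a source of the macrophage growth factor M-CSF, and 10% serum. M1 and M2 were naive marrow cultures of the same kind, M1 given IFN-gamma at 50 ng/mL with LPS at 10 ng/mL and M2 given, as labelled, IL-10 at 20 ng/mL, both at day 3. Neither the tumour line nor the way sepsis was induced is given in the labels, and the arrayed samples had been picked for RNA purity from 3 TAM experiments and 2 culture experiments, so p-values measure the spread between picked samples.

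TAM naive replicate 2, which the submitters had excluded for its RNA, was left out, so n = 3 for TAM naive and n = 4 elsewhere. Levels are log2 intensity relative to the 75th percentile of the array, so 0 is the level of that percentile, and levels of different genes cannot be compared because each probe has its own brightness. Differences are log2 differences ± SE from limma, called at an adjusted p (Benjamini-Hochberg over all genes tested) under 0.05. Probes well above background made up 56.9% to 69.7% of each of the 23 arrays and 42.4% of the array left out. Arrays lay on 3 slides, and each comparison was also fitted with the slide as a block.

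The cell type labels were set against defining markers. All 9 macrophage markers were above background on every array, but their summed level (in multiples of the 75th percentile) was 193 to 368 in TAM naive and 56.5 to 196 in TAM post-sepsis, against 1230 to 1410 in M0 naive. A sum follows its brightest probes, and Itgam alone gave 75.4% to 94.6% of it in TAM naive and 35.1% to 94.6% in TAM post-sepsis. Without Itgam, left out after its values were seen, the sums were 19.6 to 47.5 and 10.6 to 36.6, which overlap. The list median between the TAM groups was 0.25. No macrophage marker was called, but neither was any of the 28937 genes tested, so this does not show equal macrophage content. With the slide as a block Itgam, at -1.925, and Cd14, at -1.746, were called lower in TAM post-sepsis. The 5 pigment cell markers summed to 1590 to 2110 in TAM naive and 1540 to 2040 in TAM post-sepsis, against 0.344 to 1.24 over all marrow cultures, in which Dct and Tyrp1 were above background on no array. The array of TAM post-sepsis replicate 2 was the lowest of its group for 7 of 9 macrophage markers (Csf1r, Adgre1, Cd68, Fcgr1, Lyz2, Mertk and Aif1) and the highest for Itgam. Among neutrophil markers it was the highest for Csf3r and Cxcr2 but not for S100a8 or S100a9. This pattern was not particular to that array. M0 naive replicate 3 was likewise the lowest of its group for 7 of 9 macrophage markers and the highest for Itgam. TAM naive replicate 1 was the lowest for 6 of 9 and the highest for Itgam. With pigment cell markers this high, the TAM values below are values of a mixed sample, in which fewer cells of a type and less RNA per cell cannot be told apart.

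**Figure D1:**
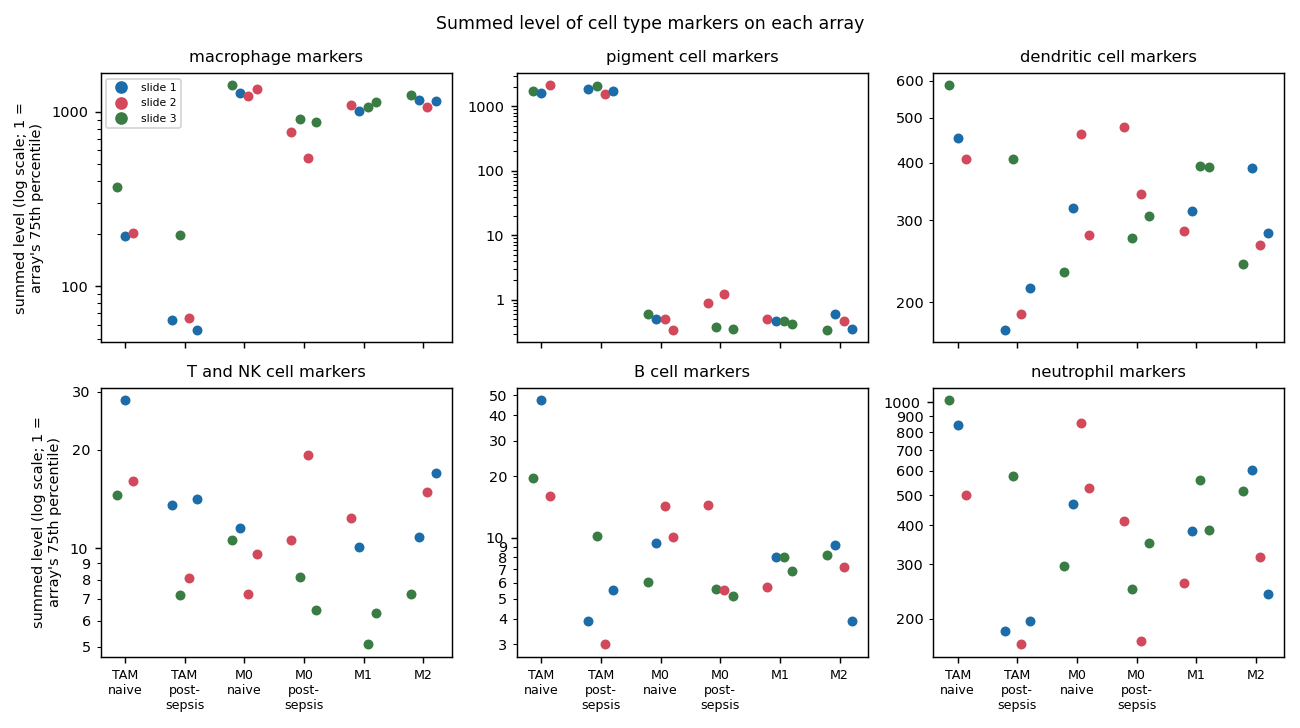
Summed level of 6 marker lists on each of the 23 arrays, by group, on a log scale in multiples of the array's 75th percentile, with 1 point per array coloured by slide. The pigment cell panel separates the TAM arrays, at 1540 or more, from the cultures, at 1.24 or less, and the macrophage panel runs the other way. In the TAM groups most of the dendritic cell and neutrophil sums comes from 1 probe each, Siglech and Csf3r.

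The probes are shown for the 3 genes whose levels moved most among the cultures, because what each one reads limits its result. Irf1 had 2 probes on chromosome 11 (mm9, chr11:53590746-53590805 and chr11:53591817-53591876, plus strand), starting at base 2056 of the common transcript and at base 2068 of another transcript variant. The Irf4 probe, at chr13:30858532-30858591 on the plus strand, started at base 4418 of its transcript. The Irf7 probe lay earlier, at base 796, and its 60 bases covered 351 bases of genome, chr7:148450664-148451014 on the minus strand, so that it spans more than 1 exon. The opening 30 bases of each 60-base probe, as the scanner files give them, were:
Irf1 probe on the common transcript: ctgctaaatggtgtttggtcatgtggtgga
Irf1 probe on the variant: taattctgagcgctgaataccaaccccaca
Irf4 probe: ttcttattagacactgctacaggcttcaca
Irf7 probe: gcataaggtgtacgaacttagccgggagct

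Promoters are shown for the same genes and for Irf8, since members moved together in several comparisons. All 8 members matched RefSeq's promoter table (GRCm38.p6), with 11 start sites, and the 250 bases before each start were searched on both strands. The motifs were GAAANNGAA, the core of the interferon-stimulated response element, TTCNNNGAA, the palindromic STAT site called GAS, GGGANTTTC for NF-kB, and GAGGAA for ETS factors such as PU.1. Over all 32851 promoter windows, 7.13% held the response element core, 7.02% the GAS motif, 0.941% the NF-kB motif and 23.3% the ETS motif. Capitals mark the matches in these windows, read 5′ to 3′ along the gene:
Irf1, chr11:53769764-53770013, plus strand: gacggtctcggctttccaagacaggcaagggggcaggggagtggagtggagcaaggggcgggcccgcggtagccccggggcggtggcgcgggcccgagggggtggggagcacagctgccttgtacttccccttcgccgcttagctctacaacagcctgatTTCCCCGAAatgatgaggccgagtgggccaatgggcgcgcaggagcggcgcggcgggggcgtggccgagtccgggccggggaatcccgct
Irf8, chr8:120736108-120736357, plus strand: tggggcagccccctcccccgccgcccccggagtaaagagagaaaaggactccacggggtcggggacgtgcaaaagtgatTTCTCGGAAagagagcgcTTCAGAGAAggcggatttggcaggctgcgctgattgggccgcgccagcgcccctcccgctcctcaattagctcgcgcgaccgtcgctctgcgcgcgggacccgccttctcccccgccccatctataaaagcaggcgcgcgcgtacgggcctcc
Irf4, chr13:30748983-30749232, plus strand: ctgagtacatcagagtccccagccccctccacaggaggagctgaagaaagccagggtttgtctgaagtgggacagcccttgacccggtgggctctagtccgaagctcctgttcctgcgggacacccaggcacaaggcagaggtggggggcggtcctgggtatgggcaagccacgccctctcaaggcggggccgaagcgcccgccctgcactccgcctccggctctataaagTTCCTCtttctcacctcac
Irf7, chr7:141266425-141266674, minus strand: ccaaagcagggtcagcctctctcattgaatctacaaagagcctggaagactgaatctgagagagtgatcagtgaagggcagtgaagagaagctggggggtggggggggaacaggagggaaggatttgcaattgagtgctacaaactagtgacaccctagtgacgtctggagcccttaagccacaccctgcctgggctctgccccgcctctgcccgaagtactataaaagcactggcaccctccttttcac
The Irf1 window held 1 GAS match, TTCCCCGAA, beginning 90 bases before the start. The Irf8 window held 2, TTCTCGGAA at 171 and TTCAGAGAA at 153 bases before the start, and that of Irf4 held an ETS match on the minus strand 19 bases before it. None of the 4 motifs was found in the Irf7 window. Irf2 was the single member with the response element core, GAAAATGAA, 241 bases before the start, followed by the GAS match TTCCGAGAA, which are shown in the opening 50 bases of its window (chr8:46739495-46739544, plus strand):
Irf2: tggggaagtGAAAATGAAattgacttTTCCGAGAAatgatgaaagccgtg
That window also held an ETS match, as did both windows of Irf9. The windows of Irf3, Irf5 and the second starts of Irf1 and Irf8 held none of the 4 motifs, and no member's window held GGGANTTTC. That string does not cover every form of the NF-kB site and other forms were not searched, so its absence does not show that the windows lack NF-kB sites. These matches describe letters in the windows, not bound sites.

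Among the cultures, Irf7 spanned the widest range of any member, from highest in M1 to lowest in M2. Irf7 is the inducible factor that amplifies type I interferon production. Its levels on the 4 M1 arrays were 5.14, 5.20, 5.41 and 5.54. M0 naive arrays lay at 1.80, 1.87, 1.88 and 2.10, M0 post-sepsis arrays at -2.04, -1.35, -1.10 and -0.80, and M2 arrays at -1.88, -1.50, -1.46 and -1.36. Every M1 array thus lay above every M0 naive array, and every M0 naive array above both other culture groups, which overlapped each other. TAM naive arrays lay at -2.75, -1.71 and -1.65 and TAM post-sepsis arrays at -2.97, -2.04, -0.94 and -0.63, overlapping each other and the M2 and M0 post-sepsis arrays. Group means ran from 5.32 ± 0.19 (SD, n = 4) in M1 through 1.91 ± 0.13 in M0 naive to -2.04 ± 0.62 (n = 3) in TAM naive.

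Irf3, the constitutive partner of IRF7 in interferon induction, varied least, with 1.08 log2 units between its highest and lowest group means. It ran from 4.03 ± 0.41 in M0 naive through 3.86 ± 0.24 in M0 post-sepsis, 3.68 ± 0.13 in M1, 3.61 ± 0.18 in M2 and 3.31 ± 0.16 in TAM post-sepsis to 2.95 ± 0.26 in TAM naive. Each neighbouring pair in that order overlapped.

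Irf9, the DNA-binding subunit of the interferon-activated complex, followed an order like that of Irf7 at the top. M1 arrays lay at 4.42, 4.44, 4.61 and 4.68, M0 naive arrays at 3.42, 3.96, 4.03 and 4.27, M0 post-sepsis arrays at 2.89, 2.96, 3.10 and 3.35, and M2 arrays at 2.27, 2.46, 2.48 and 2.50. These 4 groups did not overlap. TAM naive, at 1.75 ± 0.56, overlapped M2 from below and TAM post-sepsis, at 1.58 ± 0.32, was lowest.

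Irf1, the interferon-gamma-induced activator, was highest in M1 by a wide margin. M1 arrays lay at 8.19, 8.20, 8.37 and 8.52, M2 arrays at 5.08, 5.21, 5.23 and 5.23, and M0 naive arrays at 4.21, 4.68, 4.74 and 4.86. M0 post-sepsis arrays lay at 2.93, 2.99, 3.37 and 3.57, TAM naive arrays at 3.04, 3.05 and 4.22, and TAM post-sepsis arrays at 2.53, 3.12, 3.16 and 3.28. M1 and M2 stood clear of their neighbours, TAM naive replicate 3 reached into the range of M0 naive, and the 3 lowest groups overlapped. The second Irf1 probe was above background on all 4 M1 arrays, at -1.64 ± 0.13, and on at most 1 array of any other group, so it gives no order among the others.

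Irf2, which competes with IRF1 for its sites, had similar levels in M1, M2 and M0 naive, with means of 1.65 ± 0.22, 1.53 ± 0.34 and 1.47 ± 0.26 and overlapping arrays. M0 post-sepsis spread more widely, at 0.57 ± 0.63, and both TAM groups lay below every culture array, at -0.84 ± 0.06 post-sepsis and -0.88 ± 0.59 naive. The margin was very small, with TAM naive replicate 3 at -0.1972 and M0 post-sepsis replicate 3 at -0.1925. Irf5, an activator of inflammatory cytokine genes, split the same way but by a wide margin. It was at 3.83 ± 0.40 in M2, 3.77 ± 0.07 in M1, 3.45 ± 0.20 in M0 naive and 2.68 ± 0.67 in M0 post-sepsis. TAM naive was at -1.08 ± 0.19 and TAM post-sepsis at -1.64 ± 0.55. Every TAM array lay below the lowest culture array for Irf5, whose M0 post-sepsis arrays ran from 1.92 to 3.34.

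Irf8, the lineage factor of monocytes and macrophages, was highest in M0 naive, at 5.32 ± 0.37. M1, M2 and M0 post-sepsis followed at 4.79 ± 0.13, 4.76 ± 0.09 and 4.49 ± 0.36, each overlapping the next. TAM naive arrays lay at 1.53, 1.60 and 2.34 and TAM post-sepsis arrays at 0.28, 0.59, 1.23 and 1.60, so both TAM groups lay below every culture array and overlapped each other.

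Irf4, a factor of alternative activation in macrophages and of antigen-presenting and lymphoid cells, had a different order from the other members. M2 arrays lay at 0.74, 0.83, 0.84 and 0.90, TAM naive arrays at -0.68, -0.26 and 1.00, and TAM post-sepsis arrays at -1.87, -1.31, -1.06 and -0.36. M0 post-sepsis arrays lay at -2.93, -2.59, -2.39 and -1.88, M0 naive arrays at -4.16, -3.64, -3.19 and -2.79, and M1 arrays at -5.49, -4.42, -4.29 and -3.87. Irf4 was well above background on 3 of 4 M0 naive arrays and 1 of 4 M1 arrays, so the size of a difference from M1 is uncertain. Every M2 and TAM array lay above every array of the other culture groups, the lowest TAM post-sepsis array by very little.

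**Figure D2:**
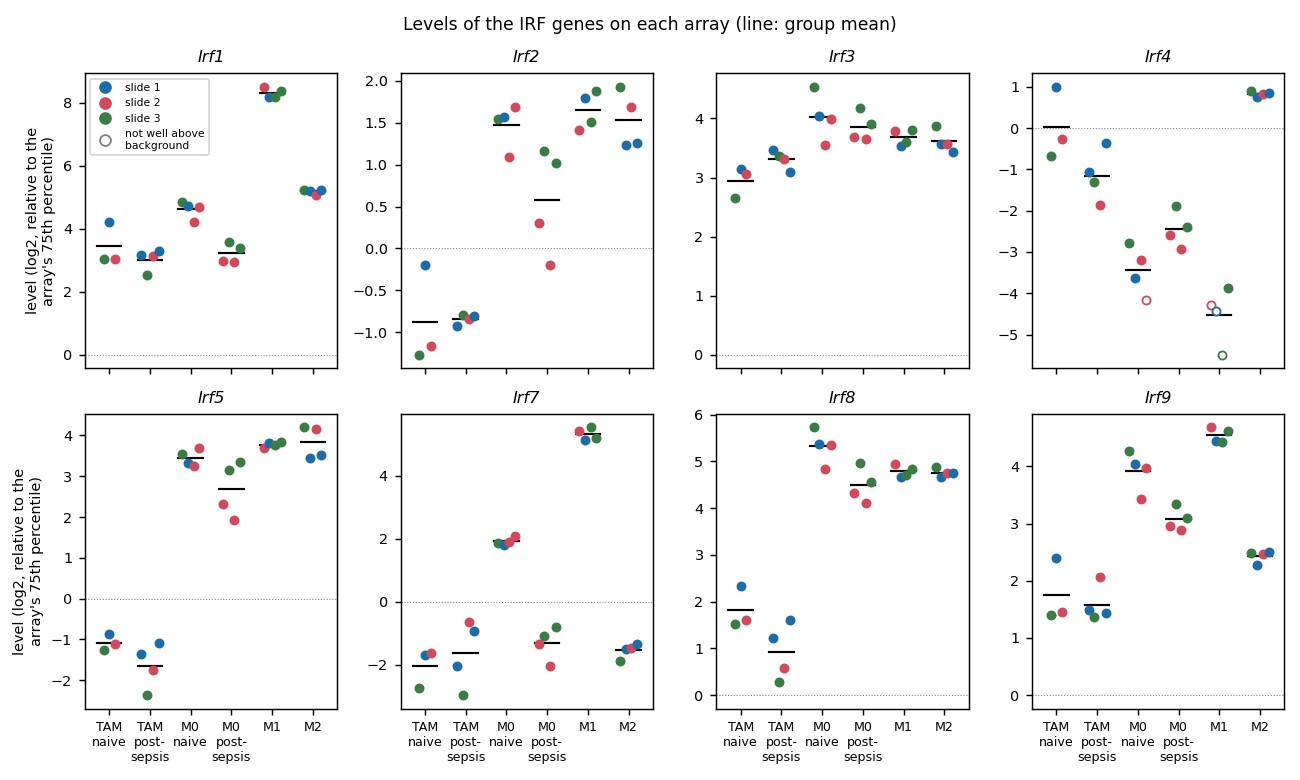
Level of each of the 8 genes on each of the 23 arrays (log2, relative to the array's 75th percentile), with 1 point per array coloured by slide, open points not well above background and a line at each group mean. M1 is highest for Irf1, Irf7 and Irf9, M2 for Irf4, and both TAM groups lie below all cultures for Irf2, Irf5 and Irf8, for Irf2 by very little.

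M1 against M0 naive cultures asked what IFN-gamma with LPS changed. Irf1 rose by 3.70 ± 0.19 (12.99-fold, adjusted p = 7.3e-10) and Irf7 by 3.41 ± 0.23 (10.6-fold, adjusted p = 1.8e-08), and Irf9 rose less, by 0.62 ± 0.19 (adjusted p = 0.020). Irf4 fell by 1.07 ± 0.34 (adjusted p = 0.028), near the limit of detection. It met the filter only through M0 naive, being above background on 3 of 4 arrays there and 1 of 4 in M1. Counting Irf4, 3 of 8 members were called higher and 1 lower, while 13.1% of the 29535 genes tested were called higher and 14.7% lower. Irf3 at -0.35 ± 0.21, Irf8 at -0.53 ± 0.21, Irf2 at 0.18 ± 0.28 and Irf5 at 0.32 ± 0.28 were not called. Within each slide Irf1 differed by 3.43 to 4.07 and Irf7 by 3.34 to 3.50. The call on Irf9 was lost without M0 naive replicate 3, at 0.45 ± 0.16 (adjusted p = 0.056), without M1 replicate 1, at 0.57 ± 0.21 (adjusted p = 0.061), and without M1 replicate 4, at 0.59 ± 0.21 (adjusted p = 0.053). The call on Irf4 was lost without M1 replicate 3, at -0.75 ± 0.31 (adjusted p = 0.097), with normexp, at -0.23 ± 0.15 (adjusted p = 0.37), and with quantile normalization, no filter, replicate and slide blocks together or the 2 groups alone (adjusted p from 0.050 to 0.15). Irf4 was not tested under the stricter filter or in 3 of 8 fits with an array left out. With the slide as a block Irf8 was called lower, at -0.61 ± 0.19 (adjusted p = 0.027), as were 15.9% of genes tested.

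The genes around the IRFs were described with 8 lists of sensors, partners and targets. Of 14 targets of IRF3, IRF7 and IRF9, 12 rose in M1, with a list median of 2.76 against -0.12 over all genes tested. Cxcl10, a T cell chemokine, rose by 4.92 ± 0.24, the antiviral Rsad2 by 3.92 ± 0.23 and Oasl1, which represses Irf7 translation, by 3.76 ± 0.19. Of 11 tested targets of IRF1 and IRF8, 9 rose, with a median of 2.08, led by the nitric oxide synthase Nos2 at 8.34 ± 0.16, the guanylate-binding protein Gbp2 at 6.63 ± 0.19 and the chemokine Cxcl9 at 5.89 ± 0.39. Both tested targets of IRF5 rose, Tnf by 4.23 ± 0.23 and Il6 at least 978-fold, as Il6 was above background on no M0 naive array.

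Upstream, 6 of 9 tested genes of interferon ligands, receptors and JAK-STAT signalling rose in M1 and 2 fell, among them Jak2 at 2.29 ± 0.19, Stat2 at 1.71 ± 0.26 and the interferon gene Ifnb1, at least 1.85-fold higher and above background on no M0 naive array. Of 19 sensors, adaptors and kinases that activate IRFs, 7 rose and 3 fell. The adaptor Ticam2 was at 2.23 ± 0.46 and the kinase Tbk1 at 1.56 ± 0.41, while Tlr7, the endosomal single-stranded RNA sensor, was at -2.75 ± 0.18. Among the 5 DNA-binding partners of IRF4 and IRF8, Batf2 rose by 4.23 ± 0.23 and Batf by 1.91 ± 0.21, while Batf3 fell by 1.13 ± 0.19 and Spib was at least 1.26-fold lower. Spi1, which encodes PU.1 and was singled out after its values were seen, was at 0.05 ± 0.22 and not called. None of 3 IRF2-binding corepressor genes was called in M1, in M2 or in M0 post-sepsis. Markers of several cell types moved in M1. Of the 9 macrophage markers 1 rose and 4 fell, 3 of 4 neutrophil markers fell, with S100a9 at -8.26 ± 0.22, and 2 of 4 tested dendritic cell markers rose, Zbtb46 by 3.38 ± 0.37 and Ccr7 by 2.24 ± 0.22. Of B cell and plasma cell markers Cd79b and Prdm1 fell, and no tested T and NK cell or pigment cell marker was called. Their part in the IRF differences was not tested.

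M2 against M0 naive cultures gave a different set of members. Irf4 rose by 4.27 ± 0.34 (19.3-fold, adjusted p = 5.1e-07). Irf7 fell by 3.46 ± 0.23 (11.02-fold, adjusted p = 6.7e-08) and Irf9 by 1.49 ± 0.19 (adjusted p = 5.0e-05). Thus 1 of 8 members was called higher and 2 lower, beside 4.88% and 7.04% of 29720 genes tested. Irf1 was higher on every M2 array than on any M0 naive array, by 0.57 ± 0.19, but was not called (adjusted p = 0.065), and 21.8% of genes tested had groups that did not overlap. Irf2, Irf3, Irf5 and Irf8 were at 0.06 ± 0.28, -0.42 ± 0.21, 0.38 ± 0.28 and -0.56 ± 0.21 and not called. The Irf4 difference was 3.68 to 4.51 within slides and that of Irf7 -3.75 to -3.22.

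The labels name IL-10 as the agent given to M2, whereas Arg1, Retnla and Chil3 are usually tied to IL-4, so which cytokine the M2 values reflect is uncertain and they are given as labelled. All 6 targets of IRF4 in alternative activation rose in M2, with a median of 5.81 against -0.07 over all genes tested. The resistin-like Retnla rose by 8.44 ± 0.70, the chitinase-like Chil3 by 7.03 ± 0.22 and the arginase Arg1 at least 1085-fold, being above background on no M0 naive array. Batf3, a leucine-zipper partner of IRF4 and IRF8, rose by 3.63 ± 0.19. Of the 14 targets of IRF3, IRF7 and IRF9, 13 fell, with a median of -2.62, among them Ifit3 at -4.87 ± 0.20, Oas2 at -4.28 ± 0.26 and Cxcl10 at -3.58 ± 0.24. Targets of IRF1 and IRF8 went both ways, 6 higher and 2 lower of 11 tested, with the class II transactivator Ciita at 1.90 ± 0.37 and the cytokine gene Il18 at -1.68 ± 0.24. Stat2 fell by 1.30 ± 0.26, the RNA sensor Ddx58 by 1.95 ± 0.25 and the DNA sensor Cgas by 1.18 ± 0.23. Among markers, 4 of 9 for macrophages, 2 of 4 for neutrophils and 1 of 6 for B cells fell, Cd2 rose by 3.34 ± 0.37 and Cd5 fell by 1.02 ± 0.31 among 5 tested T and NK cell markers, and none of 4 tested dendritic cell markers was called. Their part in the IRF differences was not tested.

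M1 was also set directly against M2, with the same M1 and M2 arrays. Irf7 was higher by 6.87 ± 0.23 (117-fold, adjusted p = 6.0e-12), Irf1 by 3.13 ± 0.19 (8.77-fold, adjusted p = 3.7e-09) and Irf9 by 2.11 ± 0.18 (4.31-fold, adjusted p = 2.9e-07). Irf4 was lower by -5.35 ± 0.34 (40.6-fold, adjusted p = 8.6e-09), with 1 of 4 M1 arrays above background. These are 3 of 8 members higher and 1 lower, beside 15.5% and 15.4% of 28721 genes tested. For the remaining members the 95% intervals of the difference ran from -0.48 to 0.72 for Irf2, -0.37 to 0.51 for Irf3, -0.66 to 0.55 for Irf5 and -0.42 to 0.48 for Irf8. All 14 targets of IRF3, IRF7 and IRF9 were called higher in M1, and all 6 targets of IRF4 in alternative activation lower, with the mannose receptor gene Mrc1 at least 2015-fold lower and Chil3 lower by -9.59 ± 0.22.

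**Figure D3:**
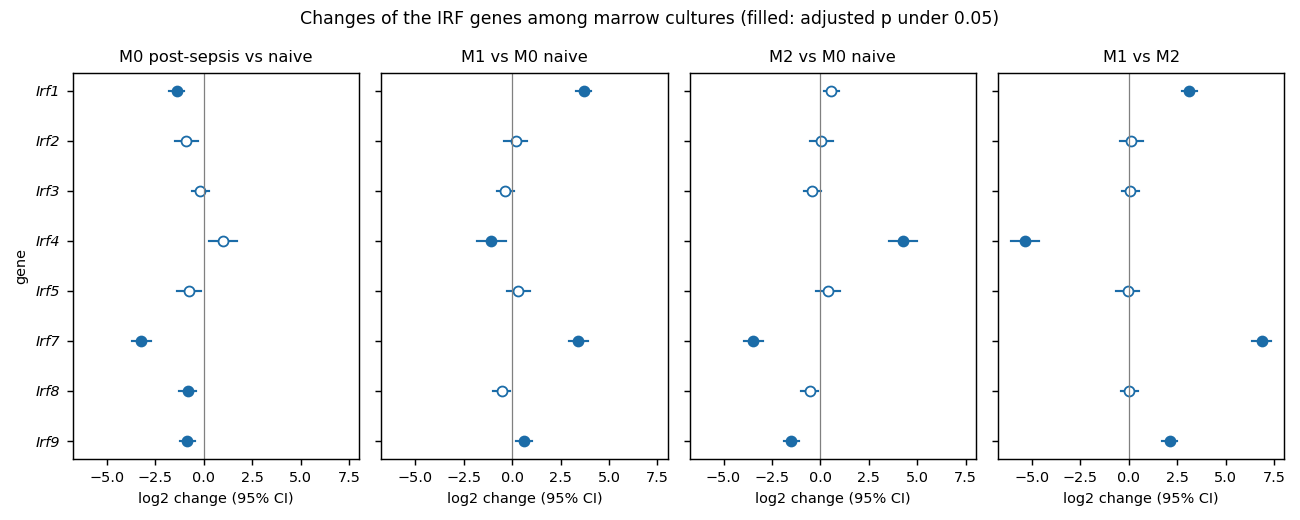
Log2 difference with its 95% confidence interval for each of the 8 genes in 4 comparisons among marrow cultures, filled where the adjusted p was under 0.05. Irf7 lies at 3.41 in M1 and -3.46 in M2 against M0 naive, and Irf4 at 4.27 in M2.

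M0 cultures of post-sepsis mice were compared with those of naive mice, which asks whether a past sepsis leaves a mark on macrophages grown from marrow. Irf7 fell by 3.24 ± 0.23 (9.42-fold, adjusted p = 3.0e-07), and ranked 57 of 29669 genes tested by the size of its moderated statistic. Irf1 fell by 1.40 ± 0.19 (2.65-fold, adjusted p = 1.0e-04), Irf9 by 0.85 ± 0.19 (adjusted p = 0.0060) and Irf8 by 0.83 ± 0.21 (adjusted p = 0.016). No member was called higher and 4 of 8 were called lower, beside 5.98% and 5.91% of genes tested. Irf1, Irf7 and Irf9 did not overlap between the groups, as did 13.0% of genes tested. Without the other culture groups in the fit, which then rests on 8 arrays, the calls on Irf8 (adjusted p = 0.17) and Irf9 (adjusted p = 0.11) were lost.

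Irf2, at -0.90 ± 0.28 (adjusted p = 0.050), Irf5, at -0.77 ± 0.28 (adjusted p = 0.11), Irf4, at 1.00 ± 0.34 (adjusted p = 0.080), and Irf3, at -0.17 ± 0.21, were not called. With the slide as a block Irf2 was at -0.99 ± 0.25 (adjusted p = 0.018) and Irf5 at -0.90 ± 0.25 (adjusted p = 0.031), both called, so that 6 members were then lower, beside 7.07% of genes. M0 post-sepsis replicates 1 and 3, on slide 2, were the 2 lowest of their group for all 8 members. Within slide 2 the difference in Irf7 was -3.69 and within slide 3 it was -2.83, and for Irf5 the corresponding values were -1.35 and -0.30. Slide 1 held no M0 post-sepsis array.

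All 14 targets of IRF3, IRF7 and IRF9 fell in M0 post-sepsis, with a median of -2.54 against 0.05 over all genes tested. The chemokine gene Ccl5 fell by 7.40 ± 0.18, Oasl1 by 3.74 ± 0.19 and Ifit3 by 3.68 ± 0.20. Of 11 tested targets of IRF1 and IRF8, 3 fell, namely the checkpoint ligand Cd274 at -2.45 ± 0.26, Gbp2 at -1.99 ± 0.20 and the oxidase subunit Cybb at -1.96 ± 0.21. Of the 19 sensors, adaptors and kinases 5 fell, among them the RNA sensor Ifih1 at -1.44 ± 0.20 and Tlr7 at -1.32 ± 0.18. Ifnar2 fell by 0.80 ± 0.20 and Ifngr1 by 0.66 ± 0.16. Of 3 tested targets of IRF4 in alternative activation, Mrc1 rose by 1.76 ± 0.24 while Chil3 fell by 0.99 ± 0.22 and Retnla fell by 6.67 ± 0.70, being well above background on 1 array of the post-sepsis group.

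Macrophage markers moved with this comparison. Of 9 markers 6 fell, with a median of -1.27, and their summed level was 541 to 906 in M0 post-sepsis against 1230 to 1410 in M0 naive. Csf1r, the M-CSF receptor, fell by 1.27 ± 0.18 and the efferocytosis receptor Mertk by 1.90 ± 0.25, while Cd68 was at -0.17 ± 0.17. Of 4 neutrophil markers 2 fell, 1 of 5 tested dendritic cell markers rose, 1 of 3 tested plasma cell and 1 of 6 B cell markers fell, and none of 5 tested T and NK cell markers was called. Their part in the IRF differences was not tested.

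**Figure D4:**
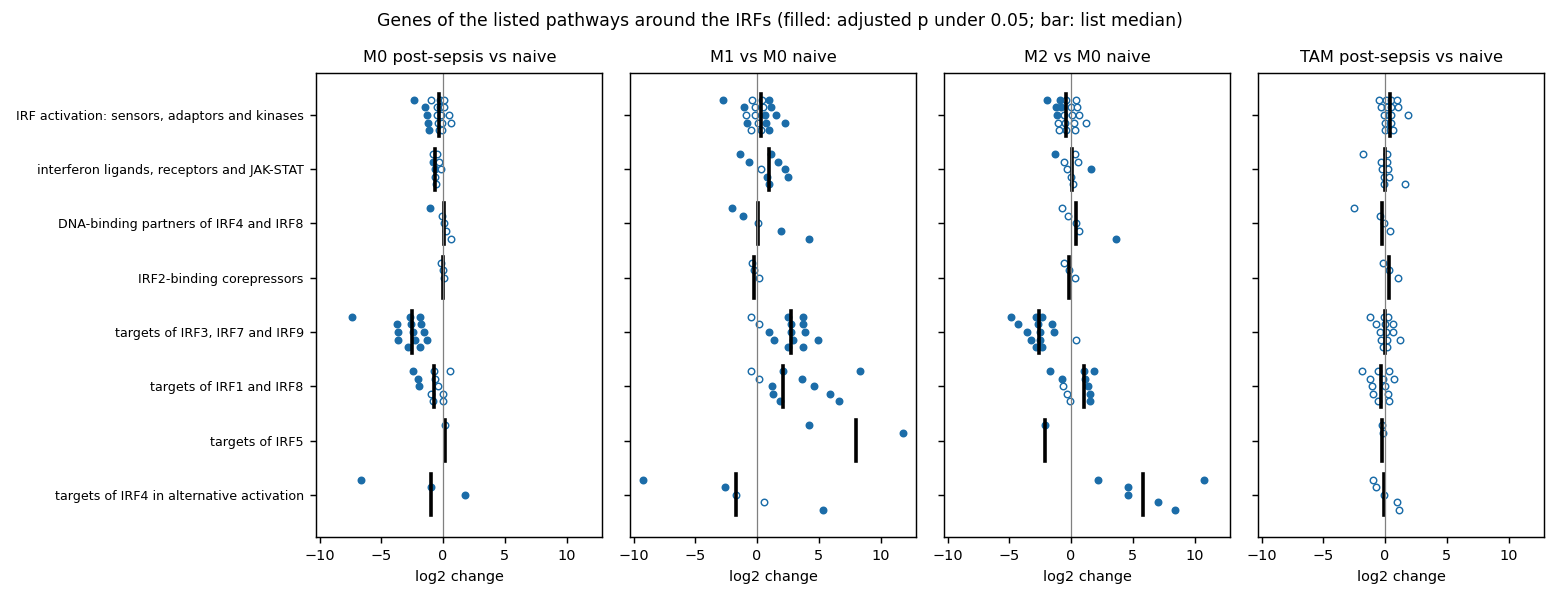
Log2 change of each tested gene in the 8 lists of sensors, partners and targets in 4 comparisons, with 1 point per gene, filled where the adjusted p was under 0.05, and a bar at each list median. The list of targets of IRF3, IRF7 and IRF9 has medians of -2.54, 2.76 and -2.62 in M0 post-sepsis, M1 and M2, and no gene is filled in the TAM panel. Genes above background in 1 group only are drawn at their fitted value, which is no bound.

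TAM of naive mice were set against M0 of naive mice to place the tumour samples among the cultures. Irf4 was higher by 3.47 ± 0.43 (11.04-fold, adjusted p = 1.3e-06) and the other 7 members were lower, beside 15.1% and 20.5% of 30627 genes tested. Irf5 was lower by -4.53 ± 0.32 (23.1-fold, adjusted p = 3.8e-10), Irf7 by -3.95 ± 0.41 (15.4-fold, adjusted p = 1.3e-07) and Irf8 by -3.50 ± 0.29 (11.3-fold, adjusted p = 4.2e-09). Irf2 was at -2.35 ± 0.30, Irf9 at -2.17 ± 0.24, Irf1 at -1.18 ± 0.26 and Irf3 at -1.08 ± 0.21. All members but Irf1 had groups that did not overlap, as did 39.7% of genes tested. Without any 1 of the 7 arrays compared, the direction and call of each of the 8 members held. The fit shares 1 spread over all 23 arrays, although Irf7 had an SD of 0.62 in TAM naive and 0.13 in M0 naive. These p-values thus rest in part on the spread of other groups, and a fit of the 2 groups alone was not run.

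The macrophage list had 8 of 9 markers called lower in TAM naive, with a median of -5.73, and all 5 pigment cell markers were called higher, with a median of 12.0. Of 8 tested T and NK cell markers 7 were called higher, as were 4 of 6 tested dendritic cell markers and 3 of 6 B cell markers. Spi1 was lower by -3.32 ± 0.34 (above background on 2 of 3 TAM naive arrays), and Spib, a PU.1 relative of B cells and plasmacytoid dendritic cells, higher by 4.72 ± 0.64. The part of these cell types in the low Irf5 and Irf8 and the high Irf4 of TAM was not tested.

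TAM of post-sepsis mice against TAM of naive mice was the comparison the series is named for, and no member was called. None of the 28937 genes tested was called by limma either (0% of genes), although 10973, or 37.9%, had an unadjusted p under 0.05, Irf4 and Irf8 among them. Irf4 was lower by -1.17 ± 0.49 (adjusted p = 0.13) and Irf8 by -0.90 ± 0.38 (adjusted p = 0.13). Irf5 was at -0.56 ± 0.32, Irf1 at -0.42 ± 0.36, Irf9 at -0.17 ± 0.32, Irf2 at 0.03 ± 0.29, Irf3 at 0.37 ± 0.21 and Irf7 at 0.39 ± 0.59. Every member's arrays overlapped between the groups, whereas 22.8% of genes tested did not overlap.

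Slide 1 held TAM naive replicate 3 and TAM post-sepsis replicates 1 and 4. Slide 2 held TAM naive replicate 4 and TAM post-sepsis replicate 3, and slide 3 held TAM naive replicate 1 and TAM post-sepsis replicate 2. A slide effect in TAM therefore cannot be told from differences between single arrays. Once the slide entered the fit as a block 34.9% of genes tested were called, 8.14% higher and 26.8% lower. Irf4, at -1.36 ± 0.30 (adjusted p = 0.016), and Irf8, at -1.05 ± 0.20 (adjusted p = 0.012), were then 2 of 8 members called lower, and none was called higher. Within slides 1, 2 and 3 Irf4 differed by -1.72, -1.61 and -0.63, and Irf8 by -0.93, -1.01 and -1.25. Each of these values rests on a single TAM naive array, and on slides 2 and 3 on a single TAM post-sepsis array as well. TAM naive replicate 3 and TAM post-sepsis replicates 1 and 4, on slide 1, were the highest of their groups for Irf4 and Irf8. Irf5 was lower within each slide, by -0.36, -0.63 and -1.12, but was not called under the block (adjusted p = 0.060). Irf7 went both ways, at 0.22, 1.01 and -0.22.

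Without TAM post-sepsis replicate 2, 2169 genes were called higher and 7670 lower, but no member was: Irf4 was at -1.12 ± 0.51 (adjusted p = 0.12) and Irf8 at -0.68 ± 0.35 (adjusted p = 0.15). With the excluded TAM naive replicate 2 put back, Irf8 turned to 0.51 (adjusted p = 0.73) and Irf4 was at -0.39 (adjusted p = 0.70). Irf8 was called, at an adjusted p of 0.048, when all 23 arrays entered the fit.

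Markers of other cells moved in the same direction as Irf4 and Irf8, both of which are also expressed by lymphocytes and dendritic cells. With the slide as a block, 7 of 8 tested T and NK cell markers, all 6 B cell markers, 5 of 6 tested dendritic cell markers, 3 of 4 tested plasma cell markers and all 4 neutrophil markers were lower in TAM post-sepsis. The B cell list had summed levels of 16 to 47.4 in TAM naive and 2.99 to 10.2 in TAM post-sepsis, the T and NK cell list 14.5 to 28.4 and 7.17 to 14.1, and the dendritic cell list 407 to 587 and 174 to 406. Siglech gave 87.9% to 98.6% of the dendritic cell sum on these arrays. Its level was 7.41 to 9.16 on TAM arrays and 7.85 to 8.89 on culture arrays. Without it the dendritic cell sums were 15.8 to 54.9 and 2.65 to 9.16. Cd4 gave 12.4% to 20% of the T and NK cell sum in TAM naive and 28.7% to 53.6% in TAM post-sepsis. Without Cd4 these sums were 12.4 to 24.8 and 3.76 to 8.58, and without Cd22 the B cell sums were 5.24 to 37.4 and 0.631 to 3.88. On M0 naive arrays the whole T and NK cell list summed to 7.27 to 11.5 and the B cell list to 6.09 to 14.2. Csf3r and Cd22 were also above background on every culture array. The same held for Cd3e, Cd4, Cd5, Lck, Cd79a, Cd79b, Flt3, Ccr7, Zbtb46, S100a8, S100a9, Xbp1 and Prdm1. On M0 naive replicates 1 to 4 Csf3r was at 6.7, 8.1, 9.4 and 8.4 and Cd22 at 1.2, 2.6, 3.5 and 2.8. Itgam moved with them there, at 4.5, 6.2, 7.6 and 6.1. Whether these probes report their named cell types here is uncertain. Among defining markers, Xcr1, Klrb1c and the plasma cell marker Tnfrsf17 were above background on no TAM array and Ncr1 on no TAM post-sepsis array. Of 9 macrophage markers 2 were lower, Itgam and Cd14, and under the block Csf1r was at 0.17 ± 0.29. Their part in the lower Irf4 and Irf8 was not tested.

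Over the 8 lists of sensors, partners and targets, the same block called 8 of 68 tested genes higher and 9 lower in TAM, 11.8% and 13.2%, beside 8.14% and 26.8% of all genes tested. Of 12 targets of IRF1 and IRF8, 4 were lower, among them Il12b, a subunit of interleukin-12, at -1.92 ± 0.31 (1 of its 4 post-sepsis values lay above background), and Cd274 at -1.24 ± 0.25. Of 14 targets of IRF3, IRF7 and IRF9, Ifit2 was higher by 1.21 ± 0.23 and Cxcl10 by 0.64 ± 0.20, and Ccl5 was lower by -1.30 ± 0.25, with a list median of -0.08. Tlr3 was higher by 1.89 ± 0.48 (above background on 1 of 3 naive arrays) and Tbk1 by 1.06 ± 0.29, while Spib was lower by -2.89 ± 0.53 and Ifng by -1.92 ± 0.37. Of 5 tested targets of IRF4 in alternative activation, Chil3 was higher by 0.88 ± 0.18, the chemokine gene Ccl17 lower by -1.08 ± 0.24 and Retnla lower by -0.81 ± 0.19, and of the corepressors Irf2bp1 was higher by 1.07 ± 0.27.

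**Figure D5:**
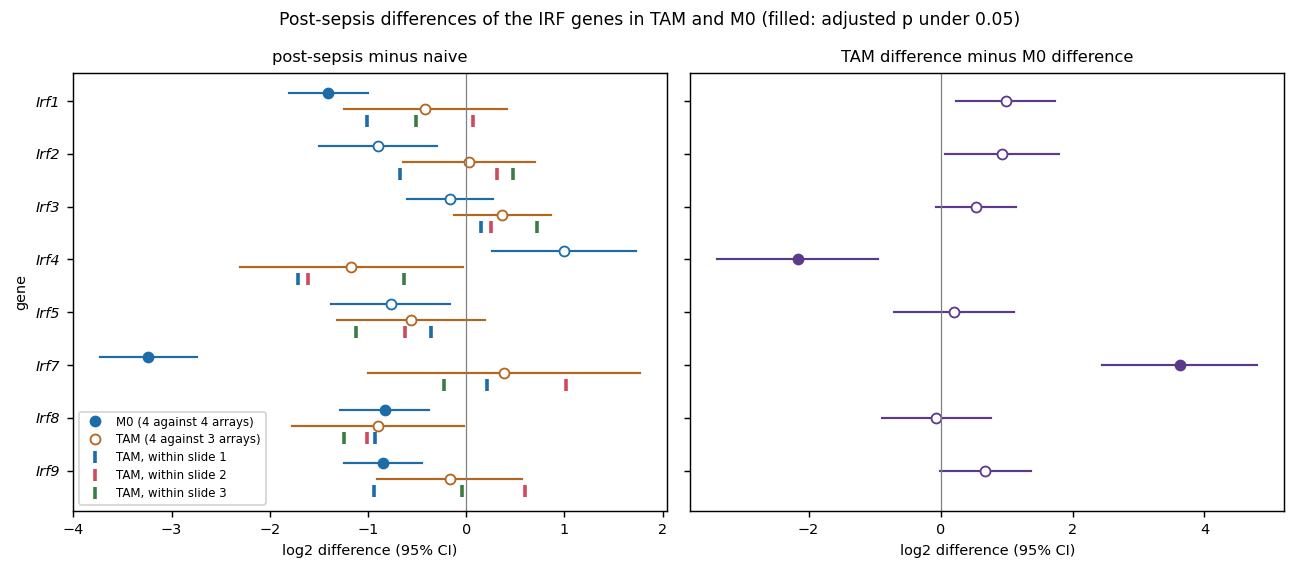
Post-sepsis minus naive log2 difference with its 95% confidence interval for each gene in M0 and in TAM, with ticks for the TAM difference within each slide (left), and the TAM difference minus the M0 difference (right), filled where the adjusted p was under 0.05. Irf7 is at -3.24 in M0 and 0.39 in TAM, and Irf4 at 1.00 and -1.17.

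Whether the post-sepsis difference was the same in TAM and M0 was tested as an interaction over all 23 arrays. That fit shares 1 spread over all groups, although Irf7 had an SD of 1.07 in TAM post-sepsis and 0.13 in M0 naive. Its SE for Irf7, 0.56, is below the 0.59 of the TAM difference fitted alone, so the p-value for Irf7 may be too small. Irf7 differed by 3.62 ± 0.56 (adjusted p = 6.8e-04), from -3.24 in M0 and 0.39 in TAM, and Irf4 by -2.17 ± 0.58 (adjusted p = 0.033), from 1.00 in M0 and -1.17 in TAM, neither of which was called by itself. These are 1 of 8 members called higher and 1 lower, beside 3.62% and 2.36% of 31776 genes tested, whose median difference was -0.32. With each array of the 4 groups left out in turn, Irf7 stayed between 3.27 and 4.07 and was called each time. Irf4 stayed between -2.52 and -1.67 and lost its call without TAM post-sepsis replicate 1 or 3, TAM naive replicate 3, M0 post-sepsis replicate 1, or M0 naive replicate 2 or 4, with values of -2.20, -1.93, -1.67, -2.21, -2.10 and -1.93. The call was lost as well with the replicate block, with replicate and slide blocks, with quantile normalization, with no filter and with TAM naive replicate 2 included, where Irf4 was at -1.39 ± 0.81 (adjusted p = 0.20). Irf1, at 0.99 ± 0.36 (adjusted p = 0.10), was called without TAM post-sepsis replicate 2, at 1.15 ± 0.36, or TAM naive replicate 3, at 1.38 ± 0.31.

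No difference between TAM and M0 was called for the remaining members. Irf8 was at -0.07 with a 95% interval from -0.89 to 0.76, and Irf5 at 0.21 from -0.70 to 1.11. Irf2 was at 0.93 ± 0.41, Irf9 at 0.68 ± 0.33 and Irf3 at 0.53 ± 0.29. All 14 targets of IRF3, IRF7 and IRF9 were called higher in the interaction, with a median of 2.50, led by Ccl5 at 6.22 ± 0.38 and Ifit2 at 4.78 ± 0.50. The macrophage markers moved with it too, 4 of 9 higher, and so did the T and NK cell markers, 5 of 8 lower, and the dendritic cell markers, 2 of 6 lower, and their part was not tested.

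The members also differed in how they varied together, which is given as a description over the 23 arrays, whose values share the group structure. Irf5 and Irf8 had a Pearson r of 0.97 and Irf2 and Irf5 of 0.96, both pairs low in TAM. Irf7 correlated with Irf9 at 0.88 and with Irf1 at 0.87, and with Irf4 at -0.80. After subtraction of group means the value for Irf5 and Irf8 was 0.73, for Irf7 and Irf9 0.44, and for Irf7 and Irf4 0.14, so that the opposite course of Irf7 and Irf4 lay between groups and not within them. Every pair of members was then positive, from 0.06 for Irf3 and Irf7 to 0.83 for Irf1 and Irf9 and 0.86 for Irf1 and Irf8. The value for Irf5 and Irf8 was thus not particular to them. Irf4 and Irf8 were at 0.66 within groups and -0.37 over the 23 arrays.

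For each member the 3 other genes with the most similar levels were taken from 32340 genes by Pearson r. Irf1 was closest to Gbp2, Gbp11 and AW112010 (0.99 each), Irf7 to Xaf1 (0.98), Mx1 and Cmpk2 (0.98 each), and Irf9 to Ddx58, Oas1c and Dhx58 (0.98 each). Irf8 was closest to Nckap1l, Nfam1 and Naip6 (0.99 each) and Irf5 to Cd300c, Themis2 and Il7r (0.99 each). Irf2 was closest to Antxr2, B3gnt2 and Bcl10 (0.98 each), Irf3 to Dctn5, Rab40c and Dhx34 (0.95 each) and Irf4 to Fn1 and Lrrc32 (0.92 each) and Rras2 (0.91).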

How the data were processed

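Total RNA of 24 samples was read on 1-colour Agilent arrays. The deposited scanner files hold spot intensity per the file headers, background-subtracted by Agilent Feature Extraction (10.7.3.1 per the file headers, 12.5 per the submitters' processing notes), with probes annotated on mm9. The deposited value table, with 24 columns, was not used, since its columns matched the scanner files of other samples. Control spots were dropped, spots of a probe were averaged, and each gene was given by its brightest probe over the 23 arrays. Log2 intensity minus the 75th percentile of each array was computed from the deposited intensity.

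A gene was tested where 3 or more arrays of 1 compared group read it well above background, by a two-sided test in limma 3.58.1 (R 4.3.3). TAM post-sepsis against naive used the 7 TAM arrays, culture comparisons the 16 culture arrays, and TAM against M0 and the interaction all 23. Tested on simulated data with known changes, the script recovered more of the larger changes than of the smaller, and not all of either. For a gene above background in no array of a group, "at least" folds set the brighter mean against the higher of the dim signal and the lowest signal well above background. Precision is limited by the number of arrays. The members and the gene and marker lists were chosen with earlier results of these data known. All members were named, with up to 3 called genes of a list by size of change and 3 genes most like each member. Alternatives were the slide, replicate number and both as blocks, quantile normalization, normexp background correction (offset 50), no filter or a stricter one, other arrays in the fit, the other Irf1 probe and leaving out each array. A comparison of the proteins was not run. One gene of the interferon signalling list is not reported here.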

Additional observations from a re-analysis of the deposited data

Results flagged for a closer look

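Irf1 in M2 replicate 3, at 5.08, lay apart from the other 3 M2 arrays, at 5.21 to 5.23, with a gap of 0.852 of the group's range against a critical value of 0.829. This was 1 of 40 sets of a gene and a group tested, and chance gives about 1 in 20. The post-sepsis difference of Irf7 differed between TAM and M0 by 3.62, and that of Irf4 by -2.17, by the interaction test.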

How the results depend on the processing

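Of member results under alternatives other than leaving out an array, 405 kept their direction and call, 21 gained a call, 13 lost one and 15 changed sign without a call. No member was called lower in TAM post-sepsis, against 2 with the slide as a block, 1 with the replicate block (Irf4 at -1.12, adjusted p = 0.048, limma; TAM post-sepsis replicate 2, whose number has no naive partner, then adds nothing to the difference) and 1 with all 23 arrays in the fit. Same-numbered samples correlated between -0.577 and 0.697, so the numbers were not taken as pairs, and the replicate block with the slide could not be fitted for TAM. In M0 post-sepsis, normexp called 1 member higher, and the 2 groups alone called 2 lower in place of 4. In M1, 1 member was called lower, against 2 with the slide as a block or quantile normalization and 0 with normexp, no filter, a stricter filter or the 2 groups alone. In M2, 2 members were called higher with replicate and slide blocks or quantile normalization, which called 4 lower, against 1 and 2. In the interaction, the 1 member called lower (Irf4) became 0 with the replicate block, with both blocks, with quantile normalization, with no filter and with TAM naive replicate 2 included. The cause was not tested.

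Signs turned, without a call, for Irf2 in TAM to -0.0305 with the slide as a block and -0.024 with normexp, and with TAM naive replicate 2 included for Irf8 to 0.51 and Irf9 to 0.11 in TAM and Irf8 to 1.34 in the interaction. The other Irf1 probe gave 0.48 in M0 post-sepsis, 0.65 in TAM naive against M0 and -1.37 in the interaction, from arrays mostly not well above background. Between M1 and M2, Irf3 went to -0.0095 and Irf8 to -0.0291 with the slide as a block, Irf2 to -0.098, Irf3 to -0.0423 and Irf8 to -0.0807 with both blocks, and Irf3 to -0.0653 with quantile normalization. Irf8 in the interaction went to 0.0745 with normexp.

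With each array left out in turn, 450 member results were unchanged in direction and call, 9 gained a call, 10 lost one and 16 changed sign. Members called higher numbered 0 to 1 in M0 post-sepsis, 2 to 3 in M1 and 1 to 2 in the interaction. Members called lower numbered 4 to 6 in M0 post-sepsis, 0 to 1 in M1, 2 to 3 in M2 and 0 to 1 in the interaction. Uncalled values crossed 0 for Irf2 (-0.16 to 0.37) and Irf9 (-0.34 to 0.15) in TAM, Irf3 in M0 post-sepsis (-0.33 to 0.0022), Irf2 in M2 (-0.0789 to 0.1528), Irf5 (-0.1848 to 0.0681) and Irf8 (-0.0233 to 0.0722) between M1 and M2, and Irf5 (-0.0472 to 0.4489) and Irf8 (-0.29 to 0.19) in the interaction. Quantile normalization moved the median of all genes by 0.106 in TAM post-sepsis, -0.105 in TAM naive against M0 and 0.257 in the interaction, and normexp by -0.123, 0.101 and -0.128. Over all genes, 1150 were called higher and 751 lower in the interaction, against 2255 and 898 with quantile normalization, 730 and 650 with no filter, 422 and 343 with TAM naive replicate 2 included, and 445 to 2305 and 440 to 3600 with an array left out. In TAM post-sepsis 0 were called, against 2355 higher and 7745 lower with the slide as a block, 2283 and 7628 with the replicate block, and 1278 and 2476 with all 23 arrays. In M0 post-sepsis 1775 were called higher and 1754 lower, against 894 and 741 with the 2 groups alone. Irf4 in M1 lies near the limit of detection, which limits the size of its differences.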
